A study of Mus musculus with 17 samples.

Results

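The ERBB receptor genes and their ligands were followed in C2C12, mouse myoblasts kept as a line that forms muscle fibres when serum is withdrawn. The genes were 9 listed symbols: the receptor genes Egfr, Erbb2 and Erbb3, the ligand genes Nrg1, Hbegf, Ereg, Areg and Tgfa, and the feedback inhibitor gene Errfi1. All 9 were found among the 15062 genes of the raw count table. RNA had been sequenced from 17 libraries of lines grown in medium with 10% fetal bovine serum. Per the labels, the lines expressed pMSCV (a retroviral vector, the control here), SRF (serum response factor, which binds CArG boxes in DNA) or a fusion named SRF-FOXO1, SRF-ICA1L, SRF-PDGFRB or SRF-RELA. SRF-PDGFRB had 2 libraries and the other 5 groups had 3 apiece. Whether a line was a single clone or a pool, and whether replicates were separate cultures, is not given in the sources used here, so the spread between replicates may in part be technical. The members were chosen by their symbols with earlier results of these libraries known, among them the low Erbb3 level against pMSCV in fusion lines. The comparisons with pMSCV are therefore given as a description of the members, with no p-value for a single member, and nothing is read from counts of members called there.

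ERBB proteins are receptor tyrosine kinases that signal as pairs. EGFR binds EGF-like ligands, of which the products of Hbegf, Ereg, Areg and Tgfa are examples, ERBB3 binds neuregulins such as the product of Nrg1, and ERBB2 has no known ligand and acts as a partner. ERBB3 has little kinase activity of its own and recruits PI3-kinase once it is phosphorylated. The ligands are made as membrane proteins and released by metalloproteases. ERRFI1 (MIG6) binds activated ERBB kinases and inhibits them, and its gene is induced by the signal it limits. In skeletal muscle, neuregulin and its receptors are known for their place at the nerve-muscle junction, where acetylcholine receptor genes are expressed.

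Library totals lay between 20901442 and 23543734 counts. Levels are CPM, a gene's counts relative to the scaled library total, with TMM as the scaling between libraries. Myoblast identity was checked with 6 marker genes (Myod1, Myf5, Des, Cdh15, Pax7 and Itga7), which summed to 1487 to 1746 CPM in the pMSCV libraries. The SRF-FOXO1 libraries held 223 to 294 CPM of the same genes. The 2 SRF-PDGFRB libraries stood far apart, at 231 CPM in replicate 1 and 1986 CPM in replicate 2. Most levels of that line are therefore given by library, while its fold changes and counts of calls pool the 2.

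Erbb3 (ENSMUSG00000018166, GRCm38 chromosome 10, 128567523 to 128589652, minus strand) was the member that differed most between lines. It stood at 29.3, 9.79 and 14.5 CPM in pMSCV replicates 1, 2 and 3. In the line expressing SRF it was at 5.0, 3.93 and 4.45 CPM. The SRF-FOXO1 libraries held 1.39, 1.36 and 0.936 CPM, from 32, 29 and 21 counts. All 3 lay below every other library of the series. The share of all genes like this was not counted, and 11.6% were below pMSCV without overlap in SRF-FOXO1. In SRF-RELA Erbb3 stood at 3.38, 2.69 and 5.18 CPM. SRF-ICA1L gave 4.29, 1.96 and 7.64 CPM. In SRF-PDGFRB the values were 1.65 and 19.2 CPM, the former close to SRF-FOXO1 and the latter within the pMSCV range. Of the 14 libraries outside pMSCV, 13 therefore lay below every pMSCV library, the exception being SRF-PDGFRB replicate 2.

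**Figure D1:**
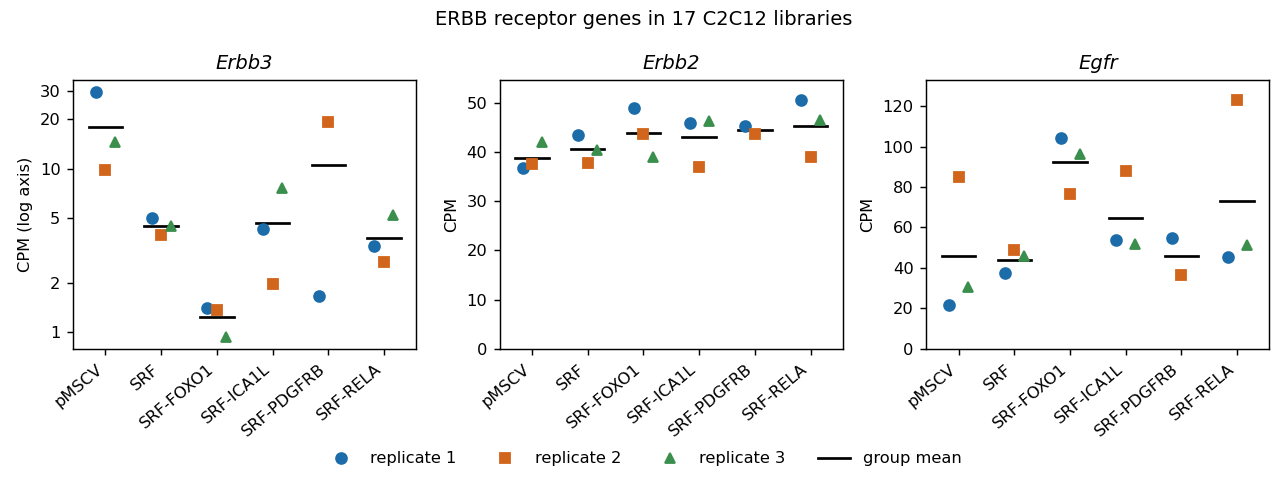
Levels of Erbb3 (CPM, log axis), Erbb2 and Egfr (CPM, linear axes from 0) in the 17 libraries, with 1 symbol per library, its shape and colour giving the replicate number, and a black line at the group mean. Erbb3 lies at 9.79 to 29.3 CPM in pMSCV and 0.936 to 1.39 CPM in SRF-FOXO1, Erbb2 stays between 36.7 and 50.6 CPM throughout, and Egfr spreads widely within pMSCV and SRF-RELA.

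By group mean, Erbb3 ran from pMSCV (17.9 CPM) through SRF-PDGFRB (10.4), SRF-ICA1L (4.63), SRF (4.46) and SRF-RELA (3.75) to SRF-FOXO1 (1.23 CPM). In that order, neighbouring groups overlapped except SRF-RELA and SRF-FOXO1. The log2 fold change against pMSCV was -3.86 in SRF-FOXO1 (SE 0.76), which is 14.5-fold lower, -2.25 in SRF-RELA (SE 0.70), -2.0 in SRF (SE 0.69) and -1.95 in SRF-ICA1L (SE 0.69). In SRF-PDGFRB it was -0.78 (SE 0.76), and it was -3.43 without replicate 2 and 0.09 without replicate 1 of that line. Replicate numbers paired the libraries of 4 groups, namely SRF-ICA1L, SRF-RELA, SRF and pMSCV. Set against the pMSCV library of the same number, Erbb3 was lower in 3 of 3 pairs for SRF (2.49- to 5.87-fold), SRF-ICA1L (1.90- to 6.84-fold) and SRF-RELA (2.81- to 8.68-fold). The numbers did not pair SRF-FOXO1 with pMSCV.

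In edgeR's quasi-likelihood fit over all 17 libraries, called at a Benjamini-Hochberg adjusted p under 0.05, Erbb3 was the 1 member called for SRF-FOXO1 against pMSCV, where 0.71% of all genes were called. The call was lost without pMSCV replicate 1 or 3, or SRF-FOXO1 replicate 1 or 3, fits in which 0 genes in all were called, and without SRF-FOXO1 replicate 2, where 195 were, while the log2 fold change stayed between -4.15 and -3.30 over the 6 fits that left out 1 library. Blocking on the replicate number in the 12 paired libraries, Erbb3 was also called lower in SRF-ICA1L (-1.98, SE 0.37) and SRF-RELA (-2.19, SE 0.37), where 2.99% and 6.48% of genes were called, but not in SRF (-1.91, SE 0.37), where the share was 0.0137%. The low Erbb3 level in fusion lines was known when the gene was chosen, so these calls describe the fits and are no independent evidence.

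The summed myoblast markers lay below every pMSCV library in the same 13 libraries as Erbb3, while other muscle lists followed it less closely. Of the markers, Itga7, a laminin-binding integrin of muscle cells, fell by 2.06 log2 units in SRF-FOXO1 against pMSCV (SE 0.36, edgeR adjusted p 0.0336). It was at 434 to 579 CPM in the pMSCV libraries and at 95.6 to 135 CPM in SRF-FOXO1. Of the 6 myoblast markers it was the 1 called without a block. The call was lost without pMSCV replicate 1 or 3, or SRF-FOXO1 replicate 1 or 3, fits in which 0 genes in all were called. In SRF-ICA1L 4 of the 6, and in SRF-RELA 5 of the 6, were called lower with the block. A list of 7 acetylcholine receptor and synapse genes summed to 416 to 771 CPM in pMSCV and 152 to 201 CPM in SRF-FOXO1. One of the 7, Gabpa, lay between 81.6 and 146 CPM in every library, a large part of the lower sums. The same list stood at 124 CPM in SRF-PDGFRB replicate 1 and 798 CPM in replicate 2, the library with the high Erbb3 value. It was inside the pMSCV range in SRF replicate 3 (501 CPM) and SRF-ICA1L replicate 3 (455 CPM), where Erbb3 was below that range. Genes of differentiating muscle (7 of 8 analysed) summed to 114 to 238 CPM in pMSCV, 28.2 to 51.1 CPM in SRF-FOXO1 and 200 CPM in SRF-RELA replicate 2, a library with 2.69 CPM of Erbb3. In SRF-PDGFRB that sum was 9.46 CPM in replicate 1 and 461 CPM in replicate 2, the latter above every pMSCV library. The part of the muscle programme in the Erbb3 result was not tested. In RNA from a whole culture, fewer cells with a transcript and less of it per cell cannot be told apart.

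**Figure D2:**
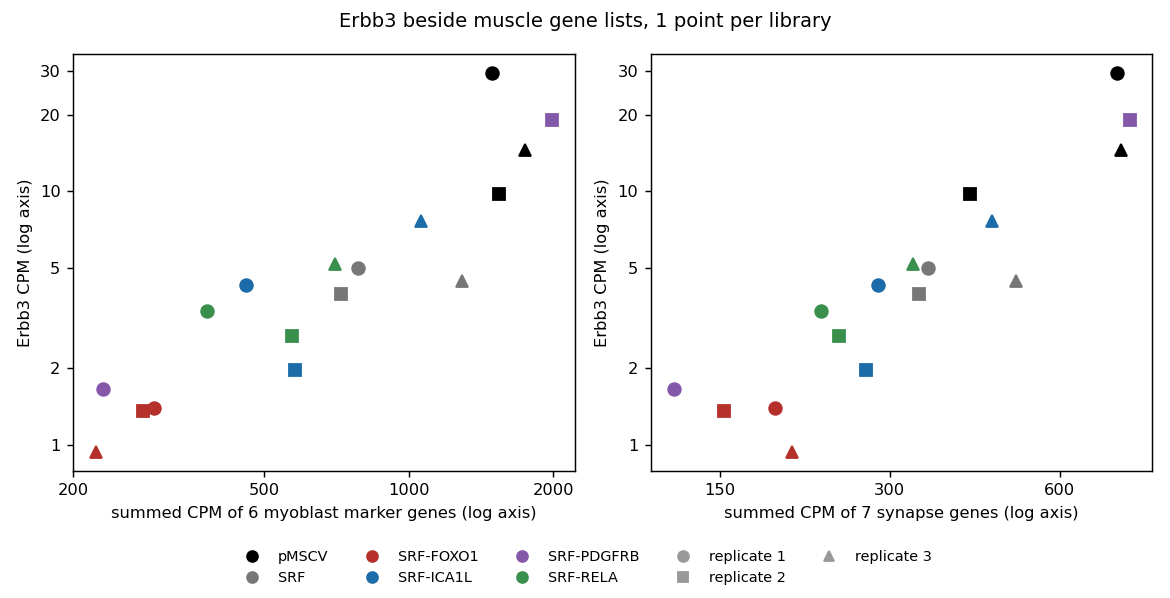
Erbb3 (CPM, log axis) against the summed CPM (log axis) of 6 myoblast markers (left) and of 7 acetylcholine receptor and synapse genes (right), with 1 point per library, colours for lines and shapes for replicate numbers. SRF-FOXO1 and SRF-PDGFRB replicate 1 sit at the lower left, and the pMSCV libraries with SRF-PDGFRB replicate 2 at the upper right.

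Markers of other cell types were looked up in the same libraries. The 2 epithelial markers analysed, Krt8 and Krt14 of a list of 6, summed to 2.35 to 38.1 CPM in pMSCV and 5.27 to 14.2 CPM in SRF-FOXO1. Fibroblast markers (4 of 5 analysed) had a wide range inside both groups, 52.2 to 503 CPM in pMSCV and 92.7 to 1922 CPM in SRF-FOXO1. All 4 were higher in SRF-FOXO1, with a median log2 fold change of 1.65 against pMSCV and 3.15 against SRF. None was called. Only 1 of the 4, Pdgfra, was above pMSCV without overlap, at 57.0 to 95.0 CPM against 10.1 to 51.7 CPM. Of all genes, 11.4% were higher in this way. Endothelial markers (2 of 4 analysed) stayed at or below 2.81 CPM, the pericyte marker Cspg4 lay between 34.2 and 84.3 CPM, and the macrophage marker Cd68 at or below 5.33 CPM in every library.

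Erbb2 (ENSMUSG00000062312, chromosome 11, 98412470 to 98437716, plus strand), the gene of the ligandless partner of ERBB3, varied least among the members. Its lowest, median and highest values over the 17 libraries were 36.7, 43.4 and 50.6 CPM, a 1.38-fold range, where Erbb3 covered a 31.3-fold range. Its log2 fold change against pMSCV lay between 0.06 (SRF, SE 0.14) and 0.22 (SRF-RELA, SE 0.14). The ratio of the 2 receptor transcripts differed between lines. Divided by the exon length of each gene (5.21 kb and 6.02 kb in GENCODE M21), the Erbb2 level was 1.45 to 4.44 times the Erbb3 level in the pMSCV libraries. The same ratio of levels per kilobase was 37.1 to 48.2 in SRF-FOXO1, 10.0 to 11.1 in SRF, 6.98 to 21.7 in SRF-ICA1L and 10.4 to 17.3 in SRF-RELA. In SRF-PDGFRB it was 31.7 in replicate 1 and 2.62 in replicate 2.

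Egfr (ENSMUSG00000020122, chromosome 11, 16752203 to 16918158, plus strand) encodes the receptor of the EGF-like ligands. It stood at 21.6, 84.9 and 30.7 CPM in pMSCV replicates 1, 2 and 3, at 37.3, 49.0 and 45.8 CPM in SRF, and at 104, 76.6 and 96.3 CPM in SRF-FOXO1. The SRF-FOXO1 libraries lay above all SRF libraries but not above pMSCV replicate 2. SRF-ICA1L (53.6, 87.8 and 51.9 CPM) and SRF-RELA (45.3, 123 and 51.4 CPM) were high in replicate 2, as pMSCV was. SRF-PDGFRB stood at 54.6 and 36.7 CPM. The log2 fold change in SRF-FOXO1 was 1.01 against pMSCV (SE 0.46) and 1.82 without pMSCV replicate 2. Against SRF it was 1.07 (SE 0.46, adjusted p 0.239, edgeR), higher in 3 of 3 libraries and not called.

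Nrg1 (ENSMUSG00000062991, chromosome 8, 31814551 to 32884029, minus strand), the gene of the ERBB3 ligand neuregulin 1, ran opposite to Erbb3 in SRF-FOXO1. The SRF-FOXO1 libraries held 70.5, 64.1 and 64.3 CPM, above every other library of the series. The share of all genes like this was not counted, and 11.4% were above pMSCV without overlap in SRF-FOXO1. In pMSCV Nrg1 was at 45.0, 39.5 and 20.8 CPM, and in SRF at 43.8, 49.0 and 25.2 CPM. SRF-ICA1L gave 54.0, 55.3 and 31.7 CPM, SRF-RELA 56.8, 58.6 and 46.0 CPM, and SRF-PDGFRB 49.1 and 20.6 CPM. Replicate 3 was the lowest of its group in 4 of 5 groups with 3 libraries, SRF-FOXO1 being the exception. The log2 fold change against pMSCV was 0.92 in SRF-FOXO1 (SE 0.35), 0.62 in SRF-RELA (SE 0.35), 0.42 in SRF-ICA1L (SE 0.35), 0.16 in SRF (SE 0.35) and -0.01 in SRF-PDGFRB (SE 0.39). The SRF-PDGFRB value was -0.78 without replicate 1 and 0.48 without replicate 2 of that line. With the block in the 12 paired libraries Nrg1 was called higher in SRF-RELA (0.70, SE 0.15). SRF-FOXO1 against SRF gave 0.75 (SE 0.35, adjusted p 0.258, edgeR), higher in 3 of 3 libraries and not called.

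In the 12 paired libraries, the EGFR ligand genes Ereg and Hbegf varied more with replicate number than with line, as the median gene did. Replicate number held 61.6% and 62.9% of their log2 CPM variance and line 26.7% and 2.76%, where the median gene had 49.6% and 19.5%. The 12 were grouped because same-numbered libraries deviated together in these data, so such shares are a description. Ereg (ENSMUSG00000029377, chromosome 5, 91074622 to 91093646, plus strand), the gene of epiregulin, had the highest level per kilobase of the 5 ligands, at a mean of 35.8 CPM per kb. It ran from 28.9 CPM in SRF-FOXO1 replicate 1 to 403 CPM in SRF-FOXO1 replicate 2, a 14-fold difference inside 1 line, with 56.0 CPM in replicate 3. In pMSCV it was at 67.0, 111 and 43.2 CPM. SRF held 126, 244 and 70.7 CPM, SRF-ICA1L 291, 228 and 59.0 CPM, SRF-RELA 123, 204 and 76.2 CPM, and SRF-PDGFRB 325 and 58.5 CPM. Replicate 2 was the highest of its group in 4 of the 5 groups with 3 libraries, and replicate 3 the lowest in 4. Ereg was higher than the pMSCV library of the same number in 3 of 3 pairs in SRF, SRF-ICA1L and SRF-RELA. The log2 fold changes against pMSCV were 0.86 to 1.38 in the 5 lines with SEs of 0.90 to 0.99. The direction turned in SRF-FOXO1 without its replicate 2 (-0.80, SE 0.80) and in SRF-PDGFRB without its replicate 1 (-0.35, SE 1.23). In SRF-ICA1L the block in the 12 paired libraries called it higher (1.29, SE 0.29).

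Hbegf (ENSMUSG00000024486, chromosome 18, 36504927 to 36515805, minus strand), the gene of heparin-binding EGF-like growth factor, was high in many of the libraries where Ereg was high. It was at 61.8, 102 and 62.6 CPM in pMSCV and at 17.7, 99.4 and 23.1 CPM in SRF-FOXO1, so that SRF-FOXO1 replicates 1 and 3 were the lowest of the series and replicate 2 was near the top. SRF stood at 62.2, 79.9 and 52.9 CPM, SRF-ICA1L at 118, 77.3 and 41.5 CPM, SRF-RELA at 82.6, 98.4 and 42.6 CPM, and SRF-PDGFRB at 63.6 and 38.3 CPM. Its log2 fold change against pMSCV lay between -0.69 (SRF-FOXO1, SE 0.57) and 0.07 (SRF-ICA1L, SE 0.56). Without SRF-FOXO1 replicate 2 the value for that line was -1.89 (SE 0.46).

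Areg (ENSMUSG00000029378, chromosome 5, 91139599 to 91148432, plus strand) encodes amphiregulin and lies 45.95 kb from Ereg. The pMSCV libraries were close together at 15.7, 14.5 and 14.8 CPM. SRF-FOXO1 held 2.66, 16.8 and 2.68 CPM, with replicates 1 and 3 the lowest of the series and replicate 2 above pMSCV. In SRF it was at 7.86, 16.6 and 9.02 CPM, in SRF-ICA1L at 14.5, 10.1 and 13.3 CPM, in SRF-RELA at 9.79, 9.26 and 16.9 CPM and in SRF-PDGFRB at 13.2 and 9.61 CPM. The log2 fold change in SRF-FOXO1 was -1.03 (SE 0.57) and -2.49 without replicate 2 of that line (SE 0.38), a fit in which it was called. Tgfa (ENSMUSG00000029999, chromosome 6, 86195223 to 86275719, plus strand), the gene of transforming growth factor alpha, had 0 to 23 counts per library. SRF libraries had 2 to 4 counts and SRF-PDGFRB 23 and 8, without overlap. The log2 fold change between these lines was 2.50 (SE 1.05, adjusted p 0.910, edgeR) and was not called.

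**Figure D3:**
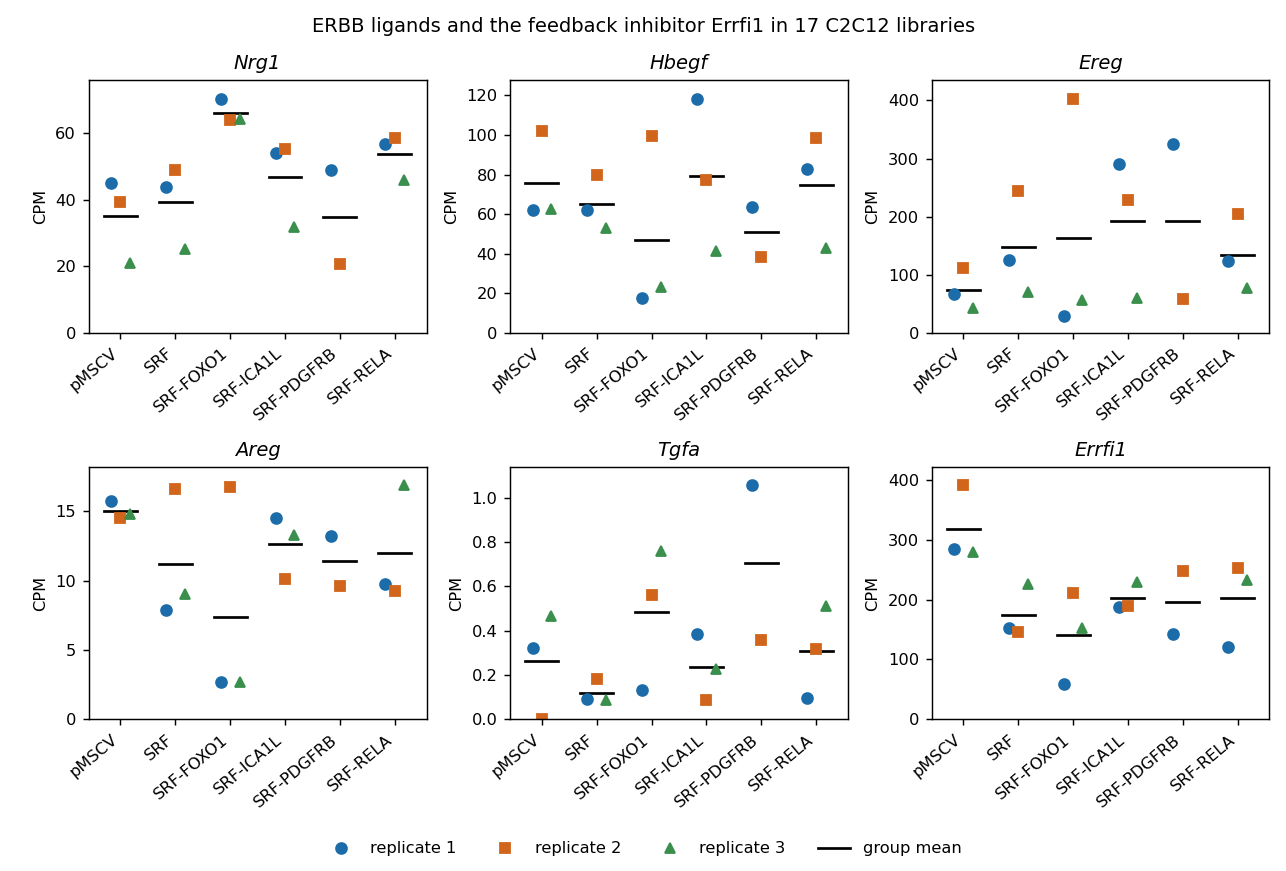
Levels (CPM, linear axes from 0) of the ligand genes Nrg1, Hbegf, Ereg, Areg and Tgfa and of Errfi1 in the 17 libraries, with 1 symbol per library and a black line at the group mean. The SRF-FOXO1 libraries hold 64.1 to 70.5 CPM of Nrg1, above all others, and all 14 libraries outside pMSCV lie below the 279 CPM of the lowest pMSCV library in Errfi1.

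In each group except SRF-ICA1L, the library highest in Ereg and Hbegf also had the highest summed level of 10 genes that respond to ERK signalling. The most abundant of these was Egr1, an immediate-early transcription factor. The sum ran from 495 CPM in SRF-FOXO1 replicate 1 and 579 CPM in replicate 3 to 4473 CPM in replicate 2. In pMSCV it was 1426, 2759 and 1012 CPM, in SRF 1769, 2622 and 939 CPM, and in SRF-RELA 2649, 4096 and 822 CPM. In SRF-PDGFRB it was 3760 CPM in replicate 1 and 765 CPM in replicate 2, the reverse of the Erbb3 order there. Egr1 made up most of the high sums, with 3252 CPM in SRF-FOXO1 replicate 2 and 2574 CPM in SRF-PDGFRB replicate 1. In pMSCV it was at 520, 1818 and 84.7 CPM. SRF-ICA1L went another way, with Ereg and Hbegf highest in replicate 1 (sum 2115 CPM) and the sum highest in replicate 2 (3649 CPM). In the 12 paired libraries, the share of the log2 CPM variance that lay between replicate numbers was 62.9% for Hbegf, 61.6% for Ereg, 59.6% for Nrg1 and 55.8% for Egfr, where the median gene had 49.6%. For Areg it was 4.45%. For Erbb3 replicate number held 15.8% and line 71.3%, and for Errfi1 18.2% and 54.0%, where line held a median of 19.5% over all genes. The 12 libraries were grouped by correlations in these data, and the low Erbb3 level was known beforehand. These shares are therefore descriptive and no independent evidence. The part of the culture's signalling state in the ligand levels was not tested.

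Errfi1 (ENSMUSG00000028967, chromosome 4, 150853919 to 150868892, plus strand), the feedback inhibitor gene, was below the pMSCV range in all 14 other libraries. The pMSCV libraries held 284, 391 and 279 CPM. SRF stood at 153, 145 and 226 CPM, SRF-FOXO1 at 58.4, 211 and 153 CPM, SRF-ICA1L at 188, 189 and 229 CPM, SRF-PDGFRB at 143 and 249 CPM, and SRF-RELA at 121, 254 and 233 CPM. Of all genes, 0.73% had all 14 of these libraries below every pMSCV library. The 5 comparisons share those 3 pMSCV libraries. The log2 fold change against pMSCV was -0.86 in SRF (SE 0.39), -1.17 in SRF-FOXO1 (SE 0.40), -0.66 in SRF-ICA1L (SE 0.39), -0.65 in SRF-RELA (SE 0.39) and -0.70 in SRF-PDGFRB (SE 0.45). Errfi1 was not called in any of these in the fit without a block, nor in the 12 paired libraries with it. DESeq2 called it lower in SRF-FOXO1 (-1.17, SE 0.41), in a fit that called 1363 of 15034 genes. Against SRF, its changes were -0.31 in SRF-FOXO1 (SE 0.39) and between 0.17 and 0.21 in the other 3 fusion lines.

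Promoter sequences from RefSeq (GRCm38.p6, 250 bases before to 50 after a transcript start) were found for 5 of the 9 genes, in 6 windows: Egfr, Erbb2, Areg, Tgfa and Errfi1, the last with a pair of starts. Those of Errfi1 and Areg are shown because both hold the cyclic AMP response element TGACGTCA, in capitals below, and because both genes had their lowest value in SRF-FOXO1 replicate 1. Areg was almost as low in replicate 3 of that line. Ereg and Hbegf, for which no window was found, also had their lowest value in SRF-FOXO1 replicate 1, so that trait does not set the shown genes apart. The other Errfi1 window, chr4:150853546-150853845, holds none of the motifs searched. The element begins 51 bases before the start in Errfi1 and 61 bases before it in Areg.
Errfi1, chr4:150854820-150855119, plus strand: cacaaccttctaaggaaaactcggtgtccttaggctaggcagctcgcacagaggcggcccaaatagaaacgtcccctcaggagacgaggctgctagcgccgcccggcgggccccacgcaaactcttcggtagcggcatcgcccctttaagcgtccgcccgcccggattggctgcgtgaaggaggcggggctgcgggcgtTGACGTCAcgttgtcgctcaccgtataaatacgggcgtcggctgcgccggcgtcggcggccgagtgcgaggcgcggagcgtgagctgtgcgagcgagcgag
Areg, chr5:91139349-91139648, plus strand: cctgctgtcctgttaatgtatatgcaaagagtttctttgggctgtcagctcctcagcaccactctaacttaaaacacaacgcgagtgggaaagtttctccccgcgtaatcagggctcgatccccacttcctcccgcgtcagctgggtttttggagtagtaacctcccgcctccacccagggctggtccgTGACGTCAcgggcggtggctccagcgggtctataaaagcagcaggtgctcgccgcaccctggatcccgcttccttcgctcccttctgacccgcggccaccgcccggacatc

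Of 32851 promoter windows of this length, 1.79% held TGACGTCA on either strand. The CArG box, the sequence that SRF is known to bind, was searched by its consensus on both strands and was in 0 of the 6 windows and 1.63% of all windows. The letters GTAAACA (a FOXO motif) and TGANTCA (an AP-1 motif) were in 0 of the 6, against 3.65% and 7.81% of all windows, and CAGCTG (an E-box) was in that of Areg, against 16.3%. These searches were chosen after the sequences had been seen, and a match describes the letters of the window alone.

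**Figure D4:**
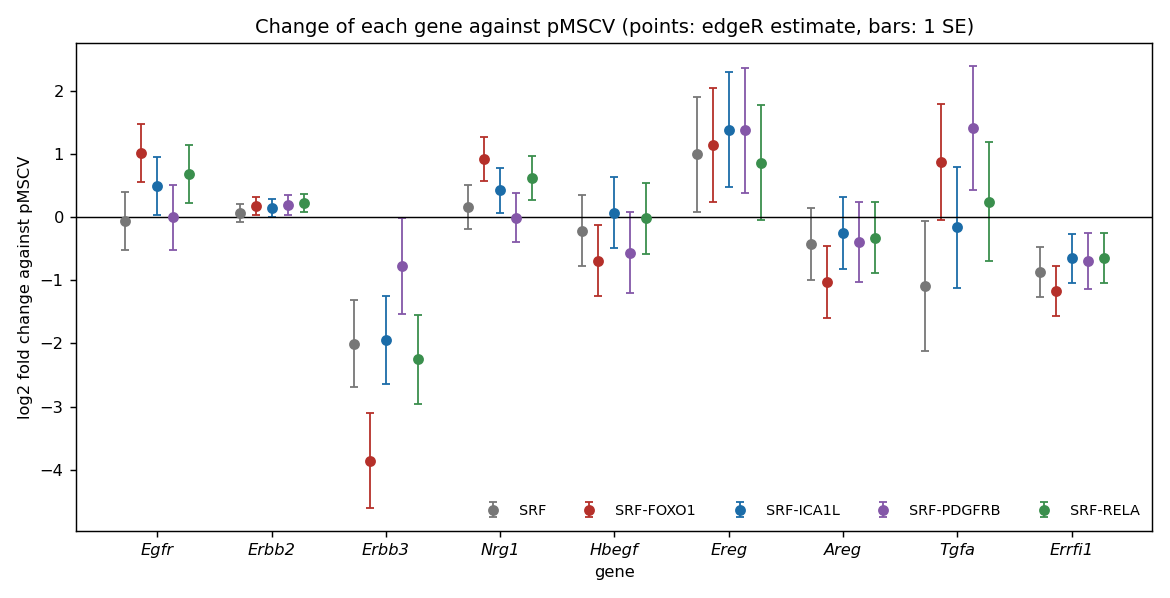
Log2 fold change against pMSCV of the 9 genes in the 5 other lines (points, edgeR estimates from the fit over 17 libraries) with bars of 1 SE. Erbb3 is lowest in SRF-FOXO1 at -3.86, Errfi1 lies between -1.17 and -0.65 in every line, Erbb2 lies close to 0, and the bars of Ereg and Tgfa are the widest.

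Across the members, the comparisons with pMSCV other than SRF-FOXO1 called 0 of 9 in edgeR's quasi-likelihood test without a block and 0 of 9 in DESeq2. edgeR called 0.00664% of all genes in SRF, 0% in SRF-ICA1L, 0.0199% for SRF-PDGFRB and 0% for SRF-RELA. At an unadjusted p under 0.05, 2 members were counted in SRF, 1 each in SRF-RELA and SRF-ICA1L, and 0 in SRF-PDGFRB, where 3.34%, 8.05%, 6.23% and 7.7% of genes did, in that order of lines. With the block in the 12 paired libraries, 2 members each were called in SRF-ICA1L (Erbb3 and Ereg) and SRF-RELA (Erbb3 and Nrg1) and 0 in SRF. For SRF-FOXO1, edgeR without a block gave 4 members a p below 0.05 before any adjustment, against 20.9% of genes.

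Whether the groups overlapped was counted for each member. Erbb3 and Errfi1 were lower than pMSCV without overlap in SRF, SRF-FOXO1 and SRF-RELA, where 5.15%, 11.6% and 5.91% of all genes were. In SRF-ICA1L the same pair and Areg were lower (5.54% of genes), and in SRF-PDGFRB it was Errfi1 and Areg (7.23%). Nrg1 was higher without overlap in SRF-FOXO1 (11.4%) and SRF-RELA (5.19%), and Erbb2 in SRF-PDGFRB (8.67%). No member was higher in SRF, where 4.02% of genes were, or in SRF-ICA1L, where 4.67% were. With SRF as the reference, Erbb3 was lower (18.3%) and Egfr and Nrg1 higher (17.1%) in SRF-FOXO1. Egfr was higher in SRF-ICA1L (4.38%), and Erbb2 and Tgfa in SRF-PDGFRB (13%). No member was lower without overlap in SRF-ICA1L (3.2%) or SRF-PDGFRB (12.7%), and none was lower (5.04%) or higher (5.86%) in SRF-RELA.

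Against SRF, which asks what a fusion changes beyond SRF itself, no member was called in any of the 4 fusion lines by edgeR or DESeq2. The shares of genes called were 0.00664% for SRF-FOXO1 and for SRF-RELA, 0% for SRF-ICA1L and 0.0531% for SRF-PDGFRB. Unadjusted p-values under 0.05 were reached by 3 members in SRF-FOXO1 (19.2% of genes), 1 in SRF-PDGFRB (5.03%), and 0 in SRF-ICA1L (1.56%) and SRF-RELA (3.21%). The block in the 12 paired libraries called 0 members in SRF-ICA1L and SRF-RELA, with 0.0956% and 0.656% of genes called. These comparisons use the fusion libraries that also entered those with pMSCV. Erbb3 in SRF-FOXO1 had a log2 fold change of -1.85 against SRF (SE 0.71, adjusted p 0.213, edgeR), lower in 3 of 3 libraries, with no overlap of the groups. In a fit of these 2 groups alone it was called (-1.84, SE 0.31, adjusted p 0.0436, edgeR), together with Egfr (1.09, SE 0.17), where 528 of 13949 genes were called, and when the same 2 groups were blocked by replicate number it was not (-1.85, SE 0.32, adjusted p 0.0514, edgeR). In SRF-ICA1L and SRF-RELA the Erbb3 differences from SRF were 0.05 (SE 0.67) and -0.25 (SE 0.68), too imprecise to show that the levels were alike. In the 6 comparisons of fusion lines with each other 0 of 54 values were called by edgeR, 4 had an unadjusted p under 0.05, and the smallest adjusted p was 0.75.

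Other genes of the pathway were taken from lists of 58 symbols, of which 52 were analysed. For SRF-FOXO1 against pMSCV 1 of the 52 was called, where 0.71% of all genes were. It was Lrig1, whose product binds ERBB receptors and promotes their breakdown, and its level fell by 1.17 log2 units (SE 0.22, edgeR adjusted p 0.0346). Lrig1 was at 50.9, 67.6 and 59.4 CPM in pMSCV and at 27.4, 29.3 and 22.3 CPM in SRF-FOXO1. These groups did not overlap, and 11.6% of all genes were lower in this way. Its level was also below the pMSCV range in SRF-ICA1L (49.3, 35.4 and 41.9 CPM) and SRF-RELA (34.1, 41.3 and 36.0 CPM). The same held in SRF-PDGFRB (25.8 and 46.9 CPM), so the low level was not particular to SRF-FOXO1. Lower without overlap in these lines were 5.54%, 5.91% and 7.23% of all genes, in that order. Against SRF (52.4, 40.3 and 57.0 CPM) the change of Lrig1 in SRF-FOXO1 was -0.92 (SE 0.22, adjusted p 0.175 in edgeR). The call was lost without pMSCV replicate 1 or 3, or SRF-FOXO1 replicate 1 or 3. The median log2 fold change of the 52 genes in SRF-FOXO1 was -0.02, with 25 higher and a median of 0.00 over all genes.

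By role, none of the 9 ligand-shedding genes was called. The most abundant of them, Adam9 and Adam10, had log2 fold changes of 0.36 (SE 0.14) and 0.17 (SE 0.16) in SRF-FOXO1. The other ligands Btc and Egf had means of 6.80 and 2.41 CPM and were not called, with changes of 0.92 (SE 0.50) and 0.05 (SE 0.38). Among 12 adaptors and effectors, none was called in SRF-FOXO1. Shc1, an adaptor of activated receptors, had a log2 fold change of 0.58 (SE 0.30) and Pik3r1, a regulatory subunit of PI3-kinase, of 1.44 (SE 0.46). Of the 11 negative regulators only Lrig1 was called there, while the values of Sh3kbp1, which takes part in receptor endocytosis, and Usp8, a deubiquitinase of endosomes, were 0.51 (SE 0.15) and 0.21 (SE 0.13). The 10 ERK-responsive genes had a median of -0.56 and none was called, with Egr1 at 0.58 (SE 1.44) and Fosl1 at -0.34 (SE 0.50). The 7 synapse genes had a median of -2.88, all 7 lower and none called. Of these, Chrna1, a subunit of the muscle acetylcholine receptor, was at -2.88 (SE 0.80) and Gabpa, an ETS factor, at -0.01 (SE 0.25).

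In the other lines no pathway gene was called against pMSCV without a block. An unadjusted p under 0.05 was reached by 2 in SRF, 6 in SRF-ICA1L, 5 for SRF-PDGFRB and 11 for SRF-RELA. Over all genes the shares were 3.34%, 6.23%, 7.7% and 8.05%, in that order. DESeq2 called 0, 0, 0 and 1, the last being Chrnd, beside 4, 42, 67 and 102 of 15034 genes. With the block in the 12 paired libraries, 9 pathway genes were called in SRF-ICA1L, 3 higher and 6 lower, and 12 in SRF-RELA, 4 higher and 8 lower. Over all genes, 2.99% and 6.48% were called in these fits. Synapse genes made up 4 of the lower genes in SRF-ICA1L and 6 in SRF-RELA. Chrnd, the delta subunit gene of the muscle acetylcholine receptor, named after its value was seen, fell by 2.40 (SE 0.19) and 2.86 (SE 0.19) in that fit and by 1.76 (SE 0.19) in SRF, where it was the 1 pathway gene called. Spry2, an ERK feedback inhibitor, fell by 0.86 (SE 0.14) and 1.03 (SE 0.14), and Adam12, a protease known to shed HB-EGF, rose by 1.56 (SE 0.24) and 1.70 (SE 0.24), both also picked with their values known. Adam12 was not particular to these fusions. It was at 6.13 to 26.8 CPM in pMSCV, 30.9 to 51.1 CPM in SRF and 32.0 to 65.2 CPM in SRF-FOXO1, though not called in the latter lines. In SRF-PDGFRB it was at 12.7 and 27.9 CPM. Without such overlap with pMSCV, 4.02% of genes were higher in SRF and 11.4% in SRF-FOXO1. With SRF as the reference no pathway gene was called without a block, with 14 at an unadjusted p under 0.05 in SRF-FOXO1, 1 in SRF-ICA1L and 3 each for SRF-RELA and SRF-PDGFRB. Over all genes the shares were 19.2%, 1.56%, 3.21% and 5.03%, in that order. DESeq2 called 3 in SRF-FOXO1, beside 579 of 15034 genes, and 0 in the other lines.

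Genes with the most similar pattern were sought by Pearson's r of log2 CPM over the 17 libraries, which share lines and replicate numbers. For Erbb3 they were Cadm4 (r 0.963, Spearman's rho 0.961), Itga7 (0.960 and 0.963) and Baiap2l1 (0.950 and 0.934). For Ereg they were Ptgs2 (0.962 and 0.961), Sde2 (0.939 and 0.934) and Vegfa (0.915 and 0.882). For Hbegf they were Maff (0.958 and 0.949), Sgk1 (0.917 and 0.912) and Trib1 (0.905 and 0.870). Nrg1 was nearest to Kif5a (0.924 and 0.880), Cers4 (0.919 and 0.902) and Pcbp3 (0.916 and 0.892), and Egfr to Lbp (0.946 and 0.885), Magi1 (0.940 and 0.858) and Il17rd (0.938 and 0.914). The values for Errfi1 were lower, with Arl4c (0.844 and 0.782), Runx1 (0.843 and 0.637) and B3gntl1 (0.827 and 0.667), as were those for Erbb2, with Safb2 (0.812 and 0.703), Cdan1 (0.798 and 0.833) and Ehmt1 (0.788 and 0.725). Areg had Srp68 (0.866), Gprc5a (0.861) and Ehd1 (0.850), but rho was 0.527 to 0.637, SRF-FOXO1 replicates 1 and 3 being far below the rest. Among the members themselves, Hbegf and Ereg were the most alike (r 0.772, rho 0.772).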

How the data were processed

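The authors deposited raw counts per gene. The submitters' processing notes name FastQC 0.11.8, Trimmomatic 0.39, HISAT2 2.12.1, featureCounts, Subread 2.0.0 and GRCm38. The annotation and the strand setting are not given in the sources used here, so reads of overlapping or antisense genes may be mixed. Every gene in the deposited count table reached 10 counts in at least 3 libraries. Per the labels' protocols, the library kit selects polyadenylated RNA and keeps strand.

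Counts were scaled by TMM and tested with edgeR 4.0.16 (limma 3.58.1, R 4.3.3), quasi-likelihood with robust dispersions, in 1 fit of 17 libraries with a term for line. P-values were adjusted by Benjamini-Hochberg over all 15062 genes within each of 9 comparisons, and the SE is the log2 fold change over the root of F. Log2 CPM used a prior count of 2. DESeq2 1.42.0 was an alternative. The code was tested on simulated counts. The members and lists were chosen with earlier results of these data known, the lists from general knowledge. Genes named are the members, the called genes and the 2 most abundant of each pathway list, and the 3 most similar genes per member with a mean of at least 1 CPM. Same-numbered libraries deviated together among SRF-ICA1L, SRF-RELA, SRF and pMSCV (r across genes 0.392 to 0.789 in every pair) and between SRF and SRF-FOXO1 (0.220 to 0.330), so these numbers were taken as pairs. The pairing comes from these correlations, not from the labels. Between pMSCV and SRF-FOXO1 r was -0.195 to 0.170.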

Additional observations from a re-analysis of the deposited data

How the results depend on the processing

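Counts of called genes were compared in 234 pairs of a count and another setting, and 205 were equal or stayed within 1.5 times. Each count in the main fit was 0 or 1. Most of the unchanged pairs therefore hold 0 on both sides and show little about stability. For SRF-FOXO1 against pMSCV, members called numbered 1, and 0 to 2 when 1 library was left out. They were 2 in DESeq2 (Erbb3 and Errfi1), which called 1363 of 15034 genes, and 3 with the replicate block over 17 libraries (Erbb3, Errfi1 and Nrg1), which called 1021 of 15062, against 107 in the fit reported, though numbers did not pair those groups. Without pMSCV replicate 2 Egfr was called too, and without SRF-FOXO1 replicate 2 Areg was called in place of Erbb3. Other pathway genes called there numbered 1, and 0 to 4 when 1 library was left out. They were 3 with DESeq2 size factors in edgeR, 4 with at least 50 counts in 2 libraries, 11 with the block over 17 libraries and 12 in DESeq2. The replicate block in the 12 paired libraries moved the members called from 0 to 2 in SRF-ICA1L and SRF-RELA, and the other pathway genes from 0 to 9 and 12, and to 1 in SRF. The same 12 libraries without the block, added after the data were seen, called 0 of either. DESeq2 called 1 pathway gene in SRF-RELA. In SRF-PDGFRB against pMSCV, 0 to 1 pathway genes were called when 1 library was left out. For SRF-FOXO1 against SRF, the 2 groups alone called 2 members and 4 pathway genes, DESeq2 3 pathway genes, and the block in these 2 groups, added after the data were seen, 1 pathway gene. For SRF-RELA against SRF, the block called 1 pathway gene. The block changed no other count. No filter gave the values of the main fit. The cause of these changes was not tested. Of 1025 alternative fold changes of members, 54 changed sign, none of a called value. Tgfa had at most 23 counts in a library, which limits its precision.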
